A study of Hirudo medicinalis with 12 samples.

Results

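Ganglion 19 lies toward the tail of the leech nerve cord, and the transcripts described here were those that stood lowest there. They are 200 components of the transcript assembly, each made of 1 assembled sequence (a contig), out of 48935 such components and 76845 contigs in all. The level of a component was its count per 1000000 counts of the library (CPM), and the scale was log2(CPM + 1). A component was taken when all 9 libraries of ganglia 2 and 10 lay above all 3 libraries of ganglion 19. The gap is the distance on that scale between the lowest of the 9 and the highest of the 3. It was above 0 in 409 components (0.836% of 48935), and the 200 with the largest gaps were kept. Levels in ganglion 19 against the other ganglia therefore chose the components, and their low level in ganglion 19 is a description, not a finding.

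RNA came from adult Hirudo medicinalis, untreated animals of a single colony kept in tanks at 16 °C, as the labels describe them. Libraries 1, 4 and 7 were made from ganglion 2, near the head. Libraries 2, 5, 8, 10, 11 and 12 were made from ganglion 10, at mid-body, and libraries 3, 6 and 9 from ganglion 19. The series describes 3 leeches without saying which leech gave which library, so libraries may share an animal, and the spread behind every p-value is that between libraries, which may in part be technical.

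The leech nerve cord is a chain of ganglia between a head brain and a tail brain. Each ganglion in between holds many neurons, the glia around them and connective tissue, and most identified neurons recur from segment to segment. Some neurons are found in part of the chain only, such as those that drive the heart tubes or the reproductive organs. The identifiers carry no gene name and no contig sequence was used here, so no function is given for any component and the tissue could not be checked against marker genes. In bulk RNA, fewer cells of a type and less RNA per cell cannot be told apart.

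Total counts per library lay between 6436783 and 13429074 for ganglion 2. They lay between 7290363 and 12945651 for ganglion 10, and between 10001860 and 19110631 for ganglion 19. Libraries 1 and 3 stood apart from the rest. The 10 most abundant contigs took 53.7% of the counts in library 1 and 56.2% in library 3, against 16.7% to 39.4% in the others. After thinning to 6436783 counts, 13160 single-contig components had a count in library 1, 15330 in library 3, 24069 in library 6 and 16943 in library 9. The other 2 libraries of ganglion 2 held 27303 and 25560, and ganglion 10 held 28582 to 33948. All 3 libraries of ganglion 19 were thus poorer in different transcripts than every ganglion 10 library. The part of this difference in the low levels of the 200 components was not tested.

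Together the 200 components made up 3001 to 3556 CPM in ganglion 2, 2507 to 4074 CPM in ganglion 10 and 427 to 737 CPM in ganglion 19. Means were 3334 ± 294 CPM (SD, n = 3), 3182 ± 612 CPM (SD, n = 6) and 552 ± 164 CPM (SD, n = 3). Every library of ganglia 2 and 10 had counts for all 200, as the rule requires. In ganglion 19, 83 of them had counts in library 3, 121 in library 6 and 125 in library 9. The median component stood at 0 CPM in library 3, 0.200 CPM in library 6 and 0.0785 CPM in library 9, where 3 counts correspond to 0.271, 0.300 and 0.157 CPM. In the other 9 libraries the median ran from 5.04 to 6.27 CPM.

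**Figure D1:**
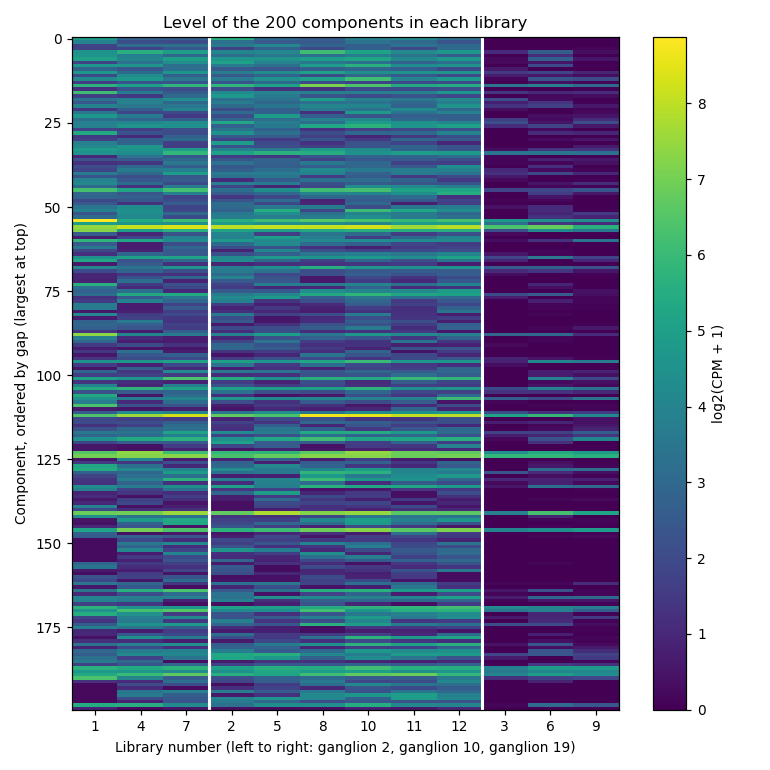
Level of each of the 200 components (rows, ordered by gap) in each library (columns, grouped by ganglion), as log2(CPM + 1). The 3 columns of ganglion 19 are dark in most rows, and bright rows, which are the abundant components, keep some signal there.

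The same difference in the summed level appeared under other scalings. With TMM-scaled libraries, a scaling that discounts very abundant contigs, the sums were 2213 to 8164 CPM in the 9 libraries and 541 to 767 CPM in ganglion 19. Scaled to the counts outside the 10 most abundant contigs they were 3982 to 7682 and 723 to 1100 CPM. Library 1 gave the highest sum under both of these scalings. The lowest sum in lane 4 outside ganglion 19 was 2631 CPM, against 491 CPM for library 9 of ganglion 19. In lane 8 it was 2507 CPM, against 427 and 737 CPM for libraries 3 and 6. Lane 2 held no library of ganglion 19. Since the components were chosen for this separation, these values describe its size only.

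**Figure D2:**
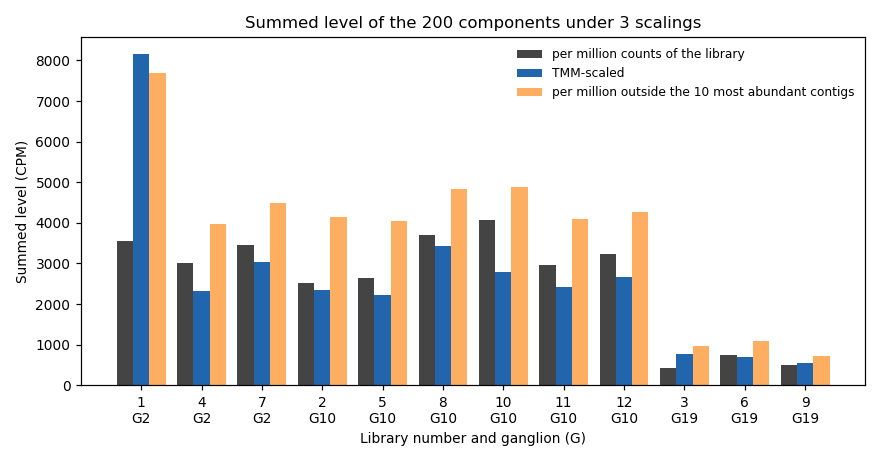
Summed level of the 200 components in each library (bars, CPM), under the library total, TMM scaling and the total outside the 10 most abundant contigs. The 3 libraries of ganglion 19 are the lowest under each scaling, and library 1 depends most on the scaling.

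Most components had at least 1 count in ganglion 19, though 35 of them had only 1 to 3 counts over its 3 libraries pooled. Of the 200, 48 were without counts in all of its libraries, 39 had counts in 1 of its libraries, 49 in 2 and 64 in all 3. What was left, the mean CPM in ganglion 19 as a percentage of the mean over the 9 other libraries, had a median of 3.34% and a highest value of 54.9%. It was under 1% in 67 components, from 1% to 10% in 87 and at or above 10% in 46. The rule ties what could be left to abundance, since a scarce component reaches a given gap on this scale only at or near 0 in ganglion 19. Components with no counts had a median level of 3.06 CPM over the 9 libraries, and none of them exceeded 12.6 CPM. Those with counts in all 3 libraries had a median of 23.9 CPM. Of the 43 components above 20 CPM, none was without counts in ganglion 19, and 40 had counts in all 3 libraries. Their remaining level ran from 1.78% to 54.9%, with a median of 16.1%. For the 48 without counts, a floor of 3 counts over ganglion 19 put the 9 libraries pooled 7.21-fold to 159-fold higher, with a median of 42.7.

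**Figure D3:**
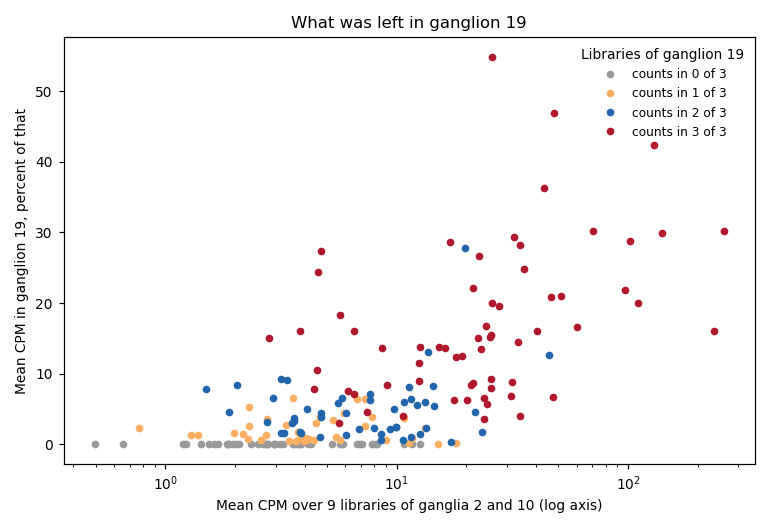
Mean CPM in ganglion 19 as a percentage of the mean over the 9 other libraries, against that mean on a log axis, for 200 components coloured by how many of the 3 libraries of ganglion 19 had counts. Components with no counts lie at or below 12.6 CPM, and those above 100 CPM kept between 16.1% and 42.3%.

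comp33386_c0_seq1 had the largest gap, 2.45 on the log2 scale. It stood at 27.4, 5.59 and 5.29 CPM in libraries 1, 4 and 7 of ganglion 2. In ganglion 10 it ran from 4.74 to 47.0 CPM, with a median of 10.8 CPM. Its levels in ganglia 2 and 10 overlapped widely, and both were far above ganglion 19. A single count in library 9 was all that ganglion 19 held, a pooled ratio of 190 (exact 95% counting interval 102 to 22474). This interval and those below cover counting error only and leave out the spread between libraries.

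comp34616_c0_seq1 and comp46540_c0_seq1 had no counts in ganglion 19 and gaps of 2.05 and 1.78. The first had 14.8, 3.42 and 3.13 CPM in ganglion 2, and 4.02 to 9.32 CPM in ganglion 10 with a median of 6.12 CPM. At a floor of 3 counts over the 3 libraries it was 90.2-fold lower in ganglion 19 (lower end of the counting interval 73.1). The second had 2.44, 8.08 and 8.64 CPM in ganglion 2, and 5.38 to 16.1 CPM in ganglion 10 with a median of 7.96 CPM. At the same floor it was 105-fold lower in ganglion 19 (lower end 84.9). The first was highest of all in library 1 and the second lowest in library 1, so the pair did not follow each other in ganglion 2.

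comp82436_c0_seq1, a scarcer component, had 2.37, 2.49 and 4.39 CPM in ganglion 2. Its range in ganglion 10 was 2.18 to 7.80 CPM, with a median of 4.24 CPM. Ganglion 19 held 2 counts, both in library 9, giving a ratio of 56.2 (interval 23.2 to 698). comp46701_c0_seq1 showed the same near absence, with 6 counts in ganglion 19 against 2.52, 9.17 and 20.0 CPM in ganglion 2 and 5.90 to 33.2 CPM in ganglion 10 (median 9.80 CPM). Its pooled ratio was 81.5 (interval 37.3 to 223).

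In 3 others among the 8 largest gaps, ganglion 19 kept a readable level in library 6 above all. comp30687_c0_seq1 had 22.6, 49.1 and 30.6 CPM in ganglion 2, and 15.6 to 70.3 CPM in ganglion 10 with a median of 21.2 CPM. It kept 1.09, 5.10 and 0.262 CPM in libraries 3, 6 and 9, a pooled ratio of 18.8 (interval 14.8 to 24.3). comp33735_c0_seq1 was among the steadiest components with a large gap, at 32.9, 15.5 and 29.6 CPM in ganglion 2 and 16.3 to 35.4 CPM in ganglion 10 (median 24.8 CPM). It kept 0.181, 5.50 and 0.419 CPM in ganglion 19. comp53398_c0_seq1 had 12 counts in library 6, 1.20 CPM, and none in libraries 3 and 9, against 6.85 to 22.9 CPM in ganglion 2 and 4.71 to 12.2 CPM in ganglion 10. Library 6, which also held the most different transcripts of its group, was often the highest: of the 152 components with any counts in ganglion 19, it led the 3 libraries in 76, library 9 in 49 and library 3 in 27.

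**Figure D4:**
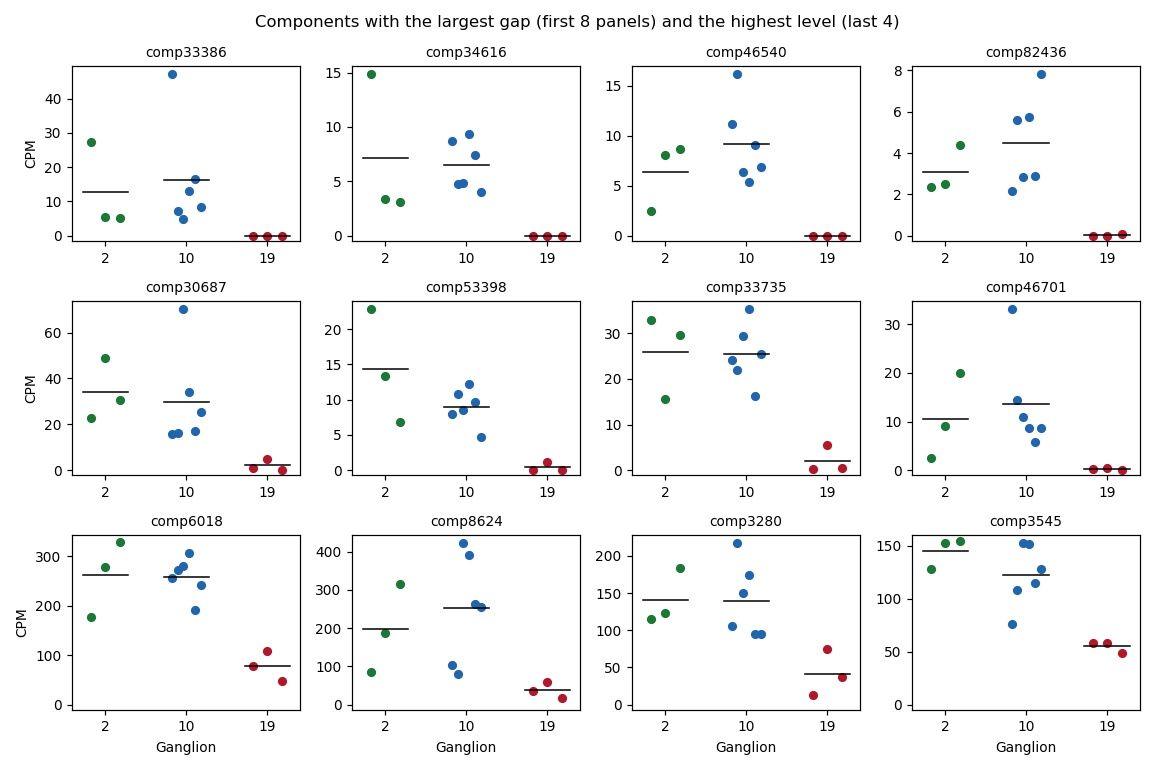
CPM in each library (points) and the mean of each ganglion (lines) for the 8 components with the largest gap and the 4 with the highest level, with a linear axis per panel. In the first 8 panels ganglion 19 lies at or near 0, and in the last 4 it lies lower but well above 0.

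The most abundant components fell short of loss. comp6018_c0_seq1, the highest, had 177, 279 and 328 CPM in ganglion 2. In ganglion 10 it ran from 192 to 306 CPM, with a median of 264 CPM. Ganglion 19 held 79.0, 108 and 48.3 CPM, so even its highest library stayed below library 1, the lowest outside ganglion 19. The pooled ratio was 3.63 (counting interval 3.49 to 3.77, which leaves out the spread between libraries). This component also had the smallest spread over the 9 libraries of all 200, a coefficient of variation of 0.191.

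comp3545_c0_seq1 behaved alike, with 128, 153 and 155 CPM in ganglion 2, 76.4 to 153 CPM in ganglion 10 (median 122 CPM) and 57.8, 58.1 and 49.0 CPM in ganglion 19. Its 3 libraries of ganglion 19 were close together, and 42.3% of the level remained. comp3280_c0_seq1 ranged from 115 to 183 CPM in ganglion 2 and from 95.1 to 217 CPM in ganglion 10, and its 13.5, 74.7 and 37.3 CPM in ganglion 19 were widely spread. comp8624_c0_seq1 varied most of the 4 outside ganglion 19, from 79.6 CPM in library 5 to 423 CPM in library 8 within ganglion 10, with a median of 259 CPM. It had 85.4, 188 and 317 CPM in ganglion 2 and 35.7, 59.5 and 17.7 CPM in ganglion 19. The component that kept most, comp9752_c0_seq1, had 25.9, 25.2 and 18.5 CPM in ganglion 2, 20.2 to 38.8 CPM in ganglion 10 and 11.1, 15.6 and 15.8 CPM in ganglion 19. comp24744_c0_seq1, also steady over the 9 libraries with a coefficient of variation of 0.215, had 30.8, 23.0 and 21.3 CPM in ganglion 2 and 15.8 to 28.9 CPM in ganglion 10. It differed in that library 3 held most of what remained, 9.23 CPM against 1.70 and 1.20 CPM in libraries 6 and 9.

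Over the 9 libraries of ganglia 2 and 10 the components varied much among themselves. Their mean levels ran from 0.496 to 259 CPM with a median of 6.73 CPM, and the median coefficient of variation was 0.721. The 8383 single-contig components with counts in all 9 libraries had a median level of 11.3 CPM and a median coefficient of variation of 0.707. The ratio of the highest to the lowest of the 9 libraries ran from 1.85 to 186, with a median of 10.7. In 11 components a single library held over 50% of the summed CPM, and in 5 of these it was library 1. comp22314_c0_seq1 was the extreme, with 79.3 CPM in library 1, 3.57 and 3.80 CPM in the other libraries of ganglion 2 and at most 3.09 CPM in ganglion 10. comp46392_c0_seq1 had 30.6 CPM in library 5 and from 0.274 to 6.53 CPM in the other 8. comp38793_c0_seq1 had 40.9 CPM in library 1 and from 0.350 to 7.82 CPM elsewhere. Library 1 was the lowest of the 9 in 48 components and the highest in 39, more than any other library on both counts.

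The contrast of ganglion 10 with ganglion 2 asked whether these transcripts also differ between the middle of the chain and the head end. The difference between these ganglia did not rank the components, but the rule used the levels of both. A component absent from any library of either ganglion could not enter, which limits the differences that could be found. No component passed. Of the 200, 197 had enough counts for the test, and 0 of these passed in edgeR (quasi-likelihood, Benjamini-Hochberg adjustment over 41445 contigs), as did 0.0% of all contigs. The biological coefficient of variation, edgeR's measure of the spread between libraries of a ganglion, was 1.44 over all contigs, with a median of 1.17 over the components. In simulated counts that gave every contig the spread of 1.44, the test called none of the large changes put in. That spread is larger than the median of the components, so how readily the test finds changes in them was not measured. The lack of calls does not show that levels were alike. The components without enough counts were comp253265_c0_seq1, comp62968_c0_seq1 and comp98503_c0_seq1. At an unadjusted p under 0.05 there were 11 components, 5.58% of those tested, all lower in ganglion 10. The share in either direction was 9.77% over all contigs and 5.88% over the 8296 tested single-contig components with counts in all 9 libraries. Over all contigs 3.52% were lower in ganglion 10 at this p, and that share is not given for the 8296. All 11 were highest in library 1. DESeq2 called 4 components (comp22927_c0_seq1, comp47290_c0_seq1, comp50432_c0_seq1 and comp61977_c0_seq1), each lower in ganglion 10, where it called 1.96% of all contigs, and 0.372% as lower in ganglion 10.

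The fitted log2 fold change of ganglion 10 against ganglion 2 had a median of -0.35 over the 197 components and 0.37 over all contigs tested. It was -0.02 over the single-contig components with counts in all 9 libraries. Its sign over the components rested on library 1 and on the scaling. Without library 1 the median was 0.11 over the components, still below the 0.38 over all contigs tested. The differences of group means on the log2(CPM + 1) scale, with all libraries, had a median of 0.09 over the components. Over the single-contig components with counts in all 9 libraries it was 0.23. With upper quartile scaling, edgeR gave -1.01 for the components and 0.20 for all contigs tested. No direction between these ganglia can be given for the 200 as a group.

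**Figure D5:**
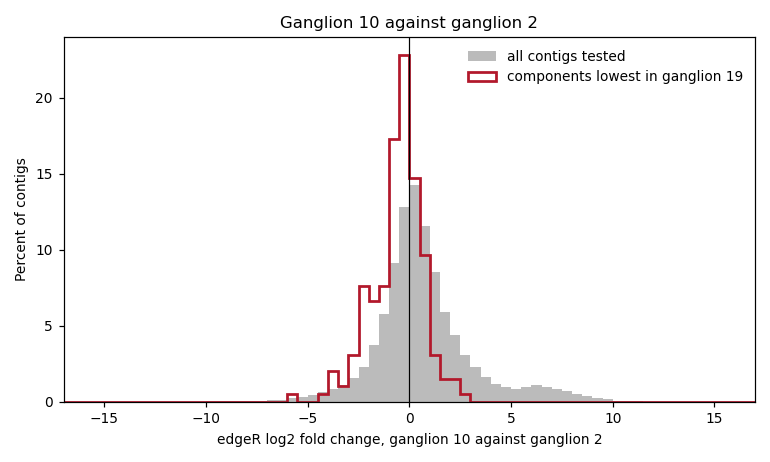
Distribution of the edgeR log2 fold change of ganglion 10 against ganglion 2 for 197 components lowest in ganglion 19 (red outline) and all 41445 contigs tested (grey), in percent of each. The outline peaks just below 0, with a median of -0.35, and it is narrower than the grey bars. The rule required counts in all 9 libraries of ganglia 2 and 10 for the components and not for the contigs in grey, so the widths are not like for like.

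The components with the smallest p in each direction show what lay behind these values. comp22314_c0_seq1 averaged 28.9 ± 43.7 CPM over ganglion 2 (SD, n = 3) and 1.45 ± 0.95 CPM over ganglion 10 (SD, n = 6). Its log2 fold change in edgeR was -5.71, with a standard error of 1.26 and an adjusted p of 0.421. Library 1 held 1006 of its 1080 counts in ganglion 2, and without that library the log2 fold change was -1.36. comp22927_c0_seq1 had 80.4, 15.5 and 4.91 CPM in ganglion 2 and 3.26 to 10.9 CPM in ganglion 10 (median 5.31 CPM), a log2 fold change of -3.75 (edgeR adjusted p = 0.472, DESeq2 adjusted p = 0.00394). Without library 1 it was -0.73.

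Higher in ganglion 10, comp48948_c0_seq1 had 0.158, 3.11 and 4.47 CPM in ganglion 2 and 5.74 to 28.3 CPM in ganglion 10 with a median of 16.4 CPM. The groups did not overlap, the log2 fold change was 2.73 (SE 1.32, edgeR adjusted p = 0.522), and ganglion 19 had no counts. At the floor of 3 counts it was 159-fold below the 9 libraries pooled (lower end of the counting interval 129). comp141275_c0_seq1 had 0.158, 1.09 and 0.223 CPM in ganglion 2, 1.03 to 4.94 CPM in ganglion 10 and nothing in ganglion 19 (log2 fold change 2.23, edgeR adjusted p = 0.765). Both had their highest mean in the middle of the chain, without passing the test.

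Levels of ganglia 2 and 10 separated fully in 6 components. Every library of ganglion 10 lay above every library of ganglion 2 in 3 (1.5%), comp48408_c0_seq1, comp48948_c0_seq1 and comp60286_c0_seq1, where 2.69% of all single-contig components did so, and 3.01% of those with counts in all 9 libraries. The reverse held in 3 (1.5%), comp22314_c0_seq1, comp36155_c0_seq1 and comp50432_c0_seq1, against 0.151% of all and 0.465% of those with counts in all 9 libraries. These 6 were singled out after their values were seen. comp50432_c0_seq1 had 12.8, 9.79 and 5.14 CPM in ganglion 2, 0.259 to 2.48 CPM in ganglion 10 (median 1.39 CPM) and 1 count in ganglion 19. comp36155_c0_seq1 had 4.73, 5.59 and 4.10 CPM in ganglion 2, 0.431 to 2.80 CPM in ganglion 10 and 4 counts in ganglion 19. The choice of components fixed ganglion 19 as the lowest in both. With TMM scaling comp141275_c0_seq1 and comp48408_c0_seq1 separated upward, while the same 3 components separated downward. The shares over all single-contig components were not computed under TMM scaling, so these counts have no background to be read against.

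Ganglion 10 holds all libraries with fractional counts, numbers 10, 11 and 12, beside libraries 2, 5 and 8 with whole counts. The median difference over the 200 components was 0.05 on the log2(CPM + 1) scale, against 0.07 over all contigs tested. In 24 components (12% of 200) libraries 10, 11 and 12 all lay above the other 3, where 11.8% of single-contig components with counts in all 9 libraries did. In 5 (2.5%) they all lay below, where 4.1% did.

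Because the contrasts with ganglion 19 chose the components, their counts of calls are given only for the record. edgeR called 0 of 197 lower in ganglion 19 than in ganglion 10, where it called 0.00241% of all contigs lower, and 145 had an unadjusted p under 0.05 and were lower, as did 16.3% of all. Against ganglion 2 it called 0 of 197 and 0.0% of all contigs, with 157 lower at an unadjusted p under 0.05 and 12.3% of all. DESeq2 called 136 lower against ganglion 10 and 135 against ganglion 2, with 9.48% and 4.96% of all contigs called lower. The same libraries of ganglion 19 enter both contrasts.

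The same rule was applied to other directions. With ganglion 2 in the place of ganglion 19, again 3 libraries against 9, 100 components (0.204%) lay below all others, against 409. Separation upward was found in 152 components (0.311%) for ganglion 19 and in 42 (0.0858%) for ganglion 2. With TMM scaling the downward counts were 391 and 115. The upward counts were then 227 and 56. Without libraries 1 and 3 the downward counts were 2509 and 381 and the upward counts 965 and 788, over fewer libraries, which the rule separates more readily. For ganglion 19, 26 components had a downward gap over 1, with a largest of 2.45, while 46 had an upward gap over 1, with a largest of 4.99. These sizes are not like for like. A downward gap cannot exceed the lowest of 9 libraries, and an upward gap the lowest of 3. No test of these differences was made.

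The share of components with a gap above 0 is given by level as a description. Counts were required in the 9 libraries and not in ganglion 19, so scarce components could more readily reach 0 there. Among components with counts in all 9 libraries, a gap above 0 was found in 10.8% of the 767 with a mean under 2 CPM and in 7.82% of the 1585 from 2 to 5 CPM. It was found in 4.39% of the 3120 from 5 to 20 CPM, in 2.31% of the 2290 from 20 to 100 CPM and in 1.93% of the 621 above that. The limit of 200 shifted the list toward abundance: it took 18 of the 83 components under 2 CPM, and 43 of the 65 above 20 CPM. Components of several contigs, summed, had a gap above 0 in 118 of 9658, or 1.22%.

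At the limit the choice was arbitrary. comp30177_c0_seq1, in the place before the last, had a gap of 0.211, with 43.9, 45.2 and 17.4 CPM in ganglion 2, 8.84 to 44.5 CPM in ganglion 10 and 0.0904, 7.50 and 4.34 CPM in ganglion 19. The last, comp253265_c0_seq1, averaged 0.496 CPM over the 9 libraries, and its gap of 0.208 was set by a single count in library 4. It shared this gap with 4 components outside the limit, and the identifier decided. Of these, comp41788_c0_seq1 ranged from 0.155 to 19.2 CPM over the 9 libraries and comp52420_c0_seq1 from 0.155 to 3.10 CPM, both with no counts in ganglion 19.

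Identifiers entered the rule only through the contigs of a component and ties at the limit. None of the 200 repeated the values of another contig, and 12 of the 8383 components with counts in all 9 libraries did. In 7 cases the assembly held another component of the same number with a different index. None of these partners had a gap above 0. comp1947_c1_seq1, a member, had 468, 42.3 and 67.1 CPM in ganglion 2, 47.3 to 93.3 CPM in ganglion 10 and 25.3, 21.2 and 20.0 CPM in ganglion 19. Its partner comp1947_c0 averaged 124, 67.8 and 82.4 CPM in ganglia 2, 10 and 19. comp3693_c1_seq1 had 1 count in ganglion 19, while its partner comp3693_c0 averaged 121 CPM there and 181 CPM in ganglion 10. comp34616_c1, the partner of comp34616_c0_seq1, had 77 counts in library 2, 108 in library 6, 77 in library 8 and none in the other libraries. The 2 components of that number were thus both present in libraries 2 and 8, and in library 6 the partner alone was.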

How the data were processed

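The deposited table holds counts per contig for libraries 1 to 9 and expected counts for libraries 10, 11 and 12, of which 29.1%, 25.2% and 29.2% were not whole. RSEM, TopHat, Cufflinks and FastQC are listed in the submitters' processing notes, with neither version nor order. No source used here names the assembler. A column's number was taken as the library number at the start of a sample's title.

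Gaps used the deposited values and column totals, with a pseudocount of 1. For testing, expected counts were rounded, low contigs were removed with filterByExpr in edgeR 4.0.16 (minimum count 10, leaving 41445), libraries were scaled by TMM, and all 12 entered a single quasi-likelihood fit with the ganglion as factor. P-values were adjusted by Benjamini-Hochberg over all contigs, with 0.05 as the threshold. The fit was tested on simulated data, where it recovered large changes at a small spread between libraries. With the common spread of these libraries given to every contig alike, it gave their direction but called none. Pooled ratios carry exact 95% binomial intervals, and folds against no counts use 3 counts over the group; both cover counting error only. CPM values use the library total unless TMM scaling is named.

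The members and the tests were chosen with earlier results of these data known. Named components were the 8 largest gaps, the 4 highest levels, the 2 smallest p in each direction between ganglia 10 and 2, the 3 lowest and 3 highest coefficients of variation, the 3 highest in ganglion 19 and those at the limit. Others are named as partners, from small counts or, for comp9752_c0_seq1, as the component that kept most. These were named after their values were seen. Alternatives were upper quartile scaling, DESeq2 1.42.0, no filter, the lane as a term, other scalings and pseudocounts, and other sets of libraries. R 4.3.3, Python 3.11.15, numpy 2.4.6, pandas 2.3.3 and scipy 1.17.1 were used.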

Additional observations from a re-analysis of the deposited data

Results flagged for a closer look

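Within ganglion 10, 1 of the 6 libraries stood far from the others in 5 of 26 values checked, all 5 in components named here, by Dixon's test of a single extreme value. Chance flags about 1 in 20 groups of normally distributed values, which untransformed CPM values need not be. The share of 12.3% among comparable components, given below, is the nearer measure. comp33386_c0_seq1 had 47.04 CPM in library 2 against 4.741 to 16.46 CPM in the other 5. comp46701_c0_seq1 had 33.17 CPM in library 2 against 5.898 to 14.36 CPM. comp30687_c0_seq1 had 70.34 CPM in library 8 against 15.63 to 34.29 CPM. comp46392_c0_seq1, named for its high spread, had 30.59 CPM in library 5 against 0.2743 to 6.526 CPM. comp30177_c0_seq1 had 44.46 CPM in library 10 against 8.837 to 20.32 CPM. In each the library was the highest, so none of them sets the gap to ganglion 19. Over all 200 components 34 (17%) were of this kind, with 3 to 7 in each of the 6 libraries, and 1029 (12.3%) of the 8383 single-contig components with counts in all 9 libraries of ganglia 2 and 10 were.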

How the results depend on the processing

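The number of single-contig components separated downward in ganglion 19, 409, was 391 with TMM scaling, 395 outside the 10 most abundant contigs and 535 in libraries 1 to 9. Leaving out a library can only raise it, by the construction of the rule: it ran from 426 to 1949, with 1949 without library 1, 1396 without library 6 and 811 without library 9. Leaving out libraries 1 and 3 together gave 2509 and leaving out libraries 2 and 5 gave 664, both chosen after seeing the data. The 200 with the largest gaps changed too: 145 of the 200 stayed with TMM scaling, 171 and 177 with pseudocounts of 0.25 and 5, 155 in libraries 1 to 9 and 40 to 189 without 1 library, with 40 without library 1, 53 without library 6 and 91 without library 9. Without libraries 1 and 3, 34 stayed. A gap above 0 was kept by 185 with TMM scaling. For ganglion 10 against ganglion 2, edgeR called 0 contigs, DESeq2 813 (4 of them components described here) and edgeR with no filter 285 (none of them), and 0 without any single library. The median log2 fold change over the components was -1.01 with upper quartile scaling and 0.10 without libraries 1 and 3, and ran from -0.57 to 0.11 without 1 library, the last without library 1; the cause was not tested. No paired analysis was made because the labels do not say which leech gave which library. Library numbers 1 to 9 run through ganglia 2, 10 and 19 in turn, an order that the labels do not explain. Depth limits the scarce components: 3 counts correspond to 0.157 to 0.466 CPM.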
